A study of Mus musculus with 5 samples.

Results

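The Hox genes of the mouse stand in 4 clusters, Hoxa, Hoxb, Hoxc and Hoxd, and all 39 of them were found among the 53927 genes measured here. Members were taken by name alone, as rows whose gene name is Hox followed by a cluster letter and a paralog number with no suffix. Of the 39 genes, 11 belong to Hoxa, 10 to Hoxb, 9 to Hoxc and 9 to Hoxd. RNA came from primary nephron progenitor cells of C57BL/6J mouse embryos, the cells of the developing kidney that self-renew and give rise to nephrons, collected after 1 passage in culture. The 2 WT libraries came from Dis3l2+/+ embryos and the 3 KO libraries from Dis3l2-/- embryos, and no further treatment is named for either group. Dis3l2 encodes an exoribonuclease that degrades uridylated RNA. The labels describe the KO by genotype alone, and they do not say whether each library came from its own embryo or litter, so a p-value here weighs genotypes against a spread between libraries that may be technical. In the GRCm38 annotation Hoxa runs along chromosome 6 from 52155590 to 52260880 (minus strand), Hoxb along chromosome 11 from 96194316 to 96368256, Hoxc along chromosome 15 from 102921103 to 103036852 and Hoxd along chromosome 2 from 74668310 to 74765142 (plus strand for these 3).

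Hox genes encode transcription factors that bind DNA through a homeodomain and give cells their identity along the body axis. Genes at matching places in the clusters are paralogs, numbered 1 to 13, and the order of the genes on the chromosome follows the order in which they are used along the axis, with low numbers anterior and high numbers posterior. The paralogs Hoxa11, Hoxc11 and Hoxd11 act together in the kidney: mice that lack all of them fail to form the metanephric kidney, and their proteins work with Eya1 and Pax2 on Six2 and Gdnf. The group 10 paralogs are known for their part in the kidney stroma, and the group 13 paralogs for the distal limb, the hindgut and the urogenital outlet.

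The homeobox stretches of the 6 genes of paralog groups 10 and 11 are shown because these groups carried most of the Hox RNA in these cells. Each is 60 bases of coding sequence, 5′ to 3′, ending in the conserved end of the third helix that contacts DNA, and capitals mark the bases that differ from Hoxd11 at the same place. They were read from the GENCODE M21 mouse transcripts.
Hoxa10: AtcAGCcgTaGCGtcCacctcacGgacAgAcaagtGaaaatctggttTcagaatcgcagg
Hoxc10: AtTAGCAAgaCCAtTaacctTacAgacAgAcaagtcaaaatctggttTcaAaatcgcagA
Hoxd10: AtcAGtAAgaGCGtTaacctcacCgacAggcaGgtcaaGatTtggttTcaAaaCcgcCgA
Hoxa11: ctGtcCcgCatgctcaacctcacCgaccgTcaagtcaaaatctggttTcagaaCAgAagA
Hoxc11: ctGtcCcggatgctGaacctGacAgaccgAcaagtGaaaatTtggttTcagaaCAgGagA
Hoxd11: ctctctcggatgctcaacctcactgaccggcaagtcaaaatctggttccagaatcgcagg
Hoxa11 and Hoxc11 differed from Hoxd11 at 10 and 13 of the 60 bases, and from each other at 8. Hoxa10, Hoxc10 and Hoxd10 differed from Hoxd11 at 14, 18 and 19. Of all 50-base windows in its exons, Hoxa10, Hoxa11, Hoxc11, Hoxd10 and Hoxd11 shared none with another Hox gene, and Hoxc10 shared 6.40% with Hoxc5, which overlaps it on the chromosome.

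Sequencing depth ranged from 19.61 M assigned reads (KO replicate 3) to 49.25 M (KO replicate 1), with both WT libraries between them, as the steps of single reads in low values showed. A gene with 3 reads stands at 0.0639 to 0.141 CPM (reads of a gene for each M assigned reads, scaled by the authors), depending on the library, and this counting floor leaves out all other error. Dis3l2 gave 16.0 and 12.2 CPM (WT) against 6.50, 4.93 and 4.70 CPM (KO), so the KO libraries lay below both WT libraries. The 9 nephron progenitor markers summed to 690 to 869 CPM in WT and 700 to 849 CPM in KO. Most of this came from Itga8 (356 to 471 CPM over the 5 libraries) and Eya1 (168 to 274 CPM). Sall1 gave 37.0 to 88.0 CPM, Osr1 19.5 to 64.6 CPM and Six2 18.6 to 31.9 CPM. Cited1, Crym and Meox1 fell as low as 1.4, 2.26 and 0.78 CPM. None of the 9 was at 0 in every library, although Pax2 reached only 0.66 CPM at most. The 9 stromal markers summed to 592 to 644 CPM in WT and 470 to 525 CPM in KO, a gap carried by Aldh1a2 (mean 284 CPM in WT and 149 CPM in KO). Of the 8 stromal markers tested, 3 were higher and 5 lower, with a median of -0.02. The defining marker Foxd1 stayed at or below 0.25 CPM, but other stromal markers stood far higher. Over the 5 libraries Meis2 gave 103 to 122 CPM, Pdgfrb 46.0 to 141 CPM, Meis1 35.8 to 86.8 CPM and Dcn 38.05 to 57.0 CPM. Ntn1 gave 8.81 to 48.6 CPM, Tcf21 8.56 to 20.4 CPM and Pdgfra 2.15 to 6.28 CPM. Whether stromal cells were present was not tested. The 12 ureteric bud markers summed to at most 15.7 CPM in any library. In such bulk RNA, fewer cells of a type and less RNA per cell cannot be told apart.

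Paralog groups 9, 10 and 11 dominated the Hox RNA of these cells. Together they made up 79.2% of the summed Hox level per kb of exon, with a range of 77.9% to 81.1% over the 5 libraries. Group 10 alone took 42.6%, group 11 took 22.2% and group 9 took 14.4%. The groups beyond them took little, with 0.62% for group 12, nearly all of it Hoxd12, and 0.17% for group 13, and group 1, at the anterior end, took 0.11%. Groups 2 to 8 took between 1.15% and 4.60% each. With each gene measured by its longest transcript in place of all its exons, groups 9 to 11 took 79.1%. By cluster, Hoxa held 40.2% of the summed level per kb, Hoxd 32.7%, Hoxb 14.6% and Hoxc 12.5%. Of the 39 genes, 29 had a mean of at least 1 CPM and 33 passed the filter of at least 0.5 CPM in at least 2 libraries. The other 6 were Hoxa13, Hoxb1, Hoxb13, Hoxc12, Hoxc13 and Hoxd1.

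**Figure D1:**
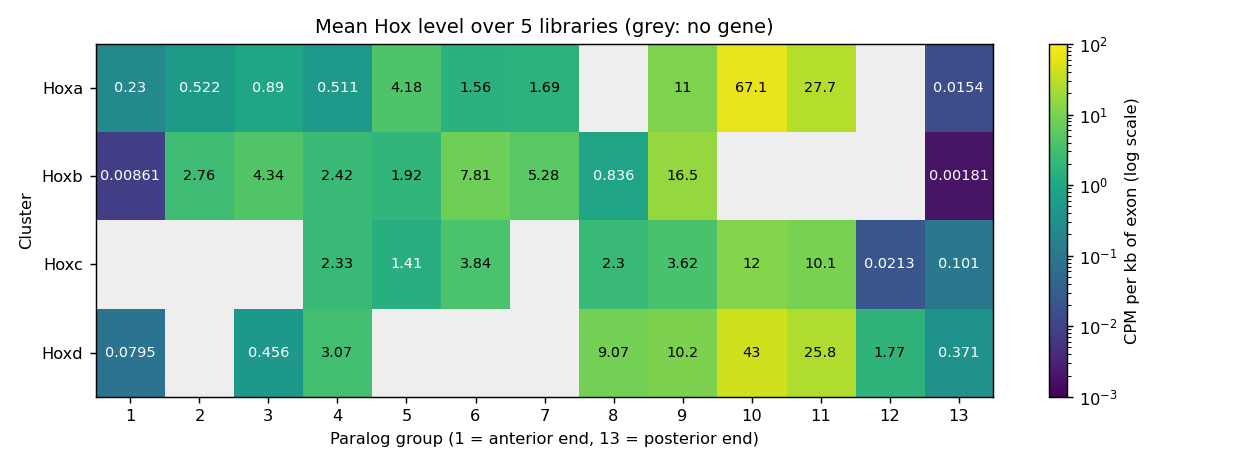
Mean level of each Hox gene over the 5 libraries in CPM per kb of exon, on a log colour scale, with clusters in rows and paralog groups in columns. The highest values stand in groups 10 and 11 of Hoxa and Hoxd, at 25.8 to 67.1, and group 13 stays at or below 0.371 in every cluster.

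Group 10 held the highest member of both clusters that led. Hoxa10 (ENSMUSG00000000938.11) gave 219 and 168 CPM (WT) against 238, 250.2 and 221 CPM (KO), and Hoxd10 gave 81.8 and 67.7 CPM (WT) against 85.0, 73.8 and 81.6 CPM (KO). Hoxa10 lay above Hoxd10 per kb of exon in all 5 libraries, with means of 67.1 and 43.0 CPM per kb. Hoxc10, the third paralog, gave 25.2 and 15.3 CPM (WT) against 29.7, 23.7 and 20.97 CPM (KO). Within the group, Hoxa10 gave 54.9% of the level per kb, Hoxd10 gave 35.4% and Hoxc10 gave 9.76%. The group therefore drew on Hoxa and Hoxd, with a smaller share from Hoxc.

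Group 11, the paralogs required for the metanephric kidney, also came mostly from Hoxa and Hoxd. Hoxd11 (ENSMUSG00000042499.13) gave 114.6 and 95.4 CPM (WT) against 118.5, 98.8 and 116.7 CPM (KO). Hoxa11 (ENSMUSG00000038210.10) gave 62.3 and 51.8 CPM (WT) against 69.2, 71.9 and 61.9 CPM (KO). Hoxc11 (ENSMUSG00000001656.3) gave 17.9 and 17.3 CPM (WT) against 21.8, 22.5 and 22.2 CPM (KO). Per kb of exon Hoxa11 and Hoxd11 were close, at 27.7 ± 3.42 and 25.8 ± 2.57 CPM per kb (SD, n = 5), and Hoxa11 was the higher in 4 of the 5 libraries. By longest transcript the means were 27.7 for Hoxa11 and 32.3 CPM per kb for Hoxd11, the reverse order. All 3 paralogs were thus present in every library, with Hoxc11 the lowest at 10.1 ± 1.25 CPM per kb (SD, n = 5), or 15.8% of the group.

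In group 9, RNA came from all 4 clusters, and the leading gene depended on the length used. Hoxb9 gave 38.2 and 42.9 CPM (WT) against 46.9, 41.8 and 43.0 CPM (KO). Hoxa9 gave 67.9 and 52.4 CPM (WT) against 62.5, 60.7 and 63.2 CPM (KO), and per kb of all exons it stood below Hoxb9, at 10.99 against 16.5 CPM per kb. By longest transcript the order was reversed, with Hoxa9 at 19.0 and Hoxb9 at 16.5 CPM per kb. Hoxd9 gave 25.0 and 18.6 CPM (WT) against 30.6, 19.2 and 15.9 CPM (KO). Per kb of all exons, Hoxb9 gave 40.2% of the group's level, Hoxa9 gave 26.7%, Hoxd9 gave 24.4% and Hoxc9 gave 8.67%.

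In every cluster the highest level per kb of exon stood in group 9 or 10, and the RNA broke off beyond group 9 or 11, in 1 step or 2. Hoxb holds no gene between Hoxb9 and Hoxb13, so where its RNA would end within that gap cannot be seen. Hoxa holds none between Hoxa11 and Hoxa13, so group 12 can be compared in Hoxc and Hoxd alone. In Hoxa, Hoxa10 stood 5.48 to 7.04-fold above Hoxa9 per kb, while Hoxa13 had 5 reads in all 5 libraries together. In Hoxb, Hoxb9 stood 14.1 to 28.9-fold above Hoxb8, and Hoxb13 had 1 read in all. In Hoxc, Hoxc10 stood 3.2 to 3.62-fold above Hoxc9, and Hoxc12 had 3 reads in all. In Hoxd the fall took 2 steps, with Hoxd11 11.3 to 18.9-fold above Hoxd12, and Hoxd12 2.59 to 9.63-fold above Hoxd13. Hoxd thus kept RNA past group 11, which the other clusters did only at the counting floor or, for Hoxc13, with 35 reads in all. Hoxd12 gave 4.54 and 3.2 CPM (WT) against 6.29, 4.68 and 3.72 CPM (KO). Hoxd13 gave 0.79 and 0.70 CPM (WT) against 0.64, 1.06 and 1.41 CPM (KO). At this depth no fold is given for a gene with 3 or fewer reads in a library, and Hoxa13, Hoxb1, Hoxb13 and Hoxc12 had too few reads to compare genotypes.

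The promoter windows on both sides of the posterior break in Hoxd and Hoxa are shown, from the genes with the most RNA to those with the least. They come from RefSeq (GRCm38.p6), which matched 22 of the 39 Hox genes with 24 start sites. Each window runs from 250 bases before to 50 bases after a start, 5′ to 3′ on the gene's own strand, with CG pairs in capitals. The windows lie at chr2:74679308-74679607 and chr2:74682073-74682372 for the 2 starts of Hoxd11, chr2:74674763-74675062 for Hoxd12 and chr2:74667975-74668274 for Hoxd13, all on the plus strand. Those of Hoxa11 and Hoxa13 lie at chr6:52245761-52246060 and chr6:52260831-52261130, on the minus strand.
Hoxd11, upstream start: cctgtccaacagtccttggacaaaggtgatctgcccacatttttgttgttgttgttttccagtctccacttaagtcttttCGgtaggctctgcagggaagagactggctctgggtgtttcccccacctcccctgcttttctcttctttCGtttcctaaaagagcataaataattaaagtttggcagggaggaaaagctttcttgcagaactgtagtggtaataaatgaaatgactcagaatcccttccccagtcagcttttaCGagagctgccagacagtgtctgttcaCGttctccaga
Hoxd11, downstream start: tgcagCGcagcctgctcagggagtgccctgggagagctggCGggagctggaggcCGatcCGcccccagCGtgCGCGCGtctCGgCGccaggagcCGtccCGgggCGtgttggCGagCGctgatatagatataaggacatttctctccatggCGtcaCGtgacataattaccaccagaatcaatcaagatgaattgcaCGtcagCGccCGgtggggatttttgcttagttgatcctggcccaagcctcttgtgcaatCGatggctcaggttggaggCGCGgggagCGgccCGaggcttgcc
Hoxd12: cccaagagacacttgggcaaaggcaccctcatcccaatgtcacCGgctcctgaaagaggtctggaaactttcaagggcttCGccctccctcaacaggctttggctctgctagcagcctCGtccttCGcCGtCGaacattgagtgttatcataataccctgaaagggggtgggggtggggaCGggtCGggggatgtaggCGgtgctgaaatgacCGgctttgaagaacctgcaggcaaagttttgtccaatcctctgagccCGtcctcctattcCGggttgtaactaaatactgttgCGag
Hoxd13: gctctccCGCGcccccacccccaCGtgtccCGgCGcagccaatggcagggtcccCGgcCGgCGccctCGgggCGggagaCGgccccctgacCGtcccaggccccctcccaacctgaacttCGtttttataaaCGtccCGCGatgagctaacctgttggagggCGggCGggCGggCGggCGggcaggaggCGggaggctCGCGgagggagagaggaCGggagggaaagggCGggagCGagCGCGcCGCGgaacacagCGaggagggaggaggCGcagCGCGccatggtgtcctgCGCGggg
Hoxa11: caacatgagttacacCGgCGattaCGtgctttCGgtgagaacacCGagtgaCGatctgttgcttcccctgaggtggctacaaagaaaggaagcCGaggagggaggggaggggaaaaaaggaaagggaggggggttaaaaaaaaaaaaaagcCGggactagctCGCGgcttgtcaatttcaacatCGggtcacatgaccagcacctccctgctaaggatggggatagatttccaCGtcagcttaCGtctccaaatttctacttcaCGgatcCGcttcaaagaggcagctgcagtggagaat
Hoxa13: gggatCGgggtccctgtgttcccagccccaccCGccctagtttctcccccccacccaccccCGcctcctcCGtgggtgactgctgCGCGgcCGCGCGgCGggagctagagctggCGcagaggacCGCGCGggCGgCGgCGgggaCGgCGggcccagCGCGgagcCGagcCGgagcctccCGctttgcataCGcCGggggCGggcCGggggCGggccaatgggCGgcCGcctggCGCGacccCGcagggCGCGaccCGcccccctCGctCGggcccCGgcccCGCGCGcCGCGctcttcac
The windows of the group 13 genes, which had little or no RNA, held the most CG pairs of these 6, with 37 in Hoxd13 and 45 in Hoxa13. Those of Hoxd11 held 4 and 25, Hoxd12 held 13 and Hoxa11 held 15. Among windows not shown, Hoxb1 (0.0086 CPM per kb) held 10, Hoxd1 (0.0795 CPM per kb) held 29 and Hoxd10 (42.95 CPM per kb) held 22. A relation of CG pairs to level was not tested. Over the 24 Hox windows the median was 14.5, against 7 over all 32851 RefSeq promoter windows of the same length. Both Hoxd11 windows held TAATTA, a core that homeodomains bind. They were the only 2 of the 24 Hox windows with it on either strand (8.33%), beside 5.29% of all windows. TGATTNAT, the motif of a Hox and Pbx pair, was found on either strand in 2 of the 24 Hox windows (8.33%). These were the downstream Hoxd11 window and that of Hoxa2, and 3.22% of all windows held the motif. TATAAA was in 4 of the 24 Hox windows (16.7%), Hoxd13 included, and in 13.6% of all windows. These are matches of letters in a window of 300 bases and show no binding.

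Central and anterior genes gave a second, lower tier, led per kb of all exons by Hoxd8, Hoxb6, Hoxb7, Hoxb3 and Hoxa5. Genes of groups 5 to 8 made up 13.9% and those of groups 1 to 4 made up 6.14% of the summed Hox level per kb. Hoxb6 gave 13.9 and 12.9 CPM (WT) against 19.0, 17.7 and 13.2 CPM (KO). Hoxb7, whose promoter is widely used to mark the ureteric bud, gave 7.23 and 7.76 CPM (WT) against 9.46, 8.86 and 7.48 CPM (KO). Hoxc6 gave 10.53 and 6.64 CPM (WT) against 10.2, 10.3 and 8.56 CPM (KO). None of these genes separated the genotypes without overlap. Hoxd8 gave 74.2% of group 8, Hoxb7 gave 75.9% of group 7 and Hoxb6 gave 59.5% of group 6. Hoxa5 gave 56.0% of group 5, so a single cluster provided most of each. Among the anterior genes Hoxb3 gave 76.3% of group 3 and Hoxb2 gave 83.2% of group 2. These genes share 52.9% and 27.3% of their exon bases with Hoxb3os on the other strand, and Hoxd3 shares 62.3% with other genes on its own strand, Hoxd4 among them, so their reads may not have been told apart. Hoxd1, the anterior end of Hoxd, had 28 reads in all, of which 21 were in KO replicate 1.

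The order of the genes by level was only partly fixed across libraries. Of the 38 neighbouring pairs in the order of mean level per kb, 9 kept their order in all 5 libraries. Hoxa10, Hoxd10, Hoxa11 and Hoxd11 stood at the top, with Hoxb9 and Hoxc10 behind them, and within these 6 places only Hoxa11 and Hoxd11 changed order in a library. This order is per kb of all exons. By longest transcript Hoxd11 stood above Hoxa11, and Hoxa9 above Hoxb9 and Hoxc10. Hoxc10, Hoxa9, Hoxd9, Hoxc11, Hoxd8 and Hoxb6, at 12.0 to 7.81 CPM per kb, followed each other without a pair that kept its order in every library. Across the 33 genes that passed the filter, the Pearson correlation of log2(CPM + 1) between any 2 libraries was 0.979 to 0.993 over the 10 pairs, as a description across genes, which share library depth and are not independent replicates.

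**Figure D2:**
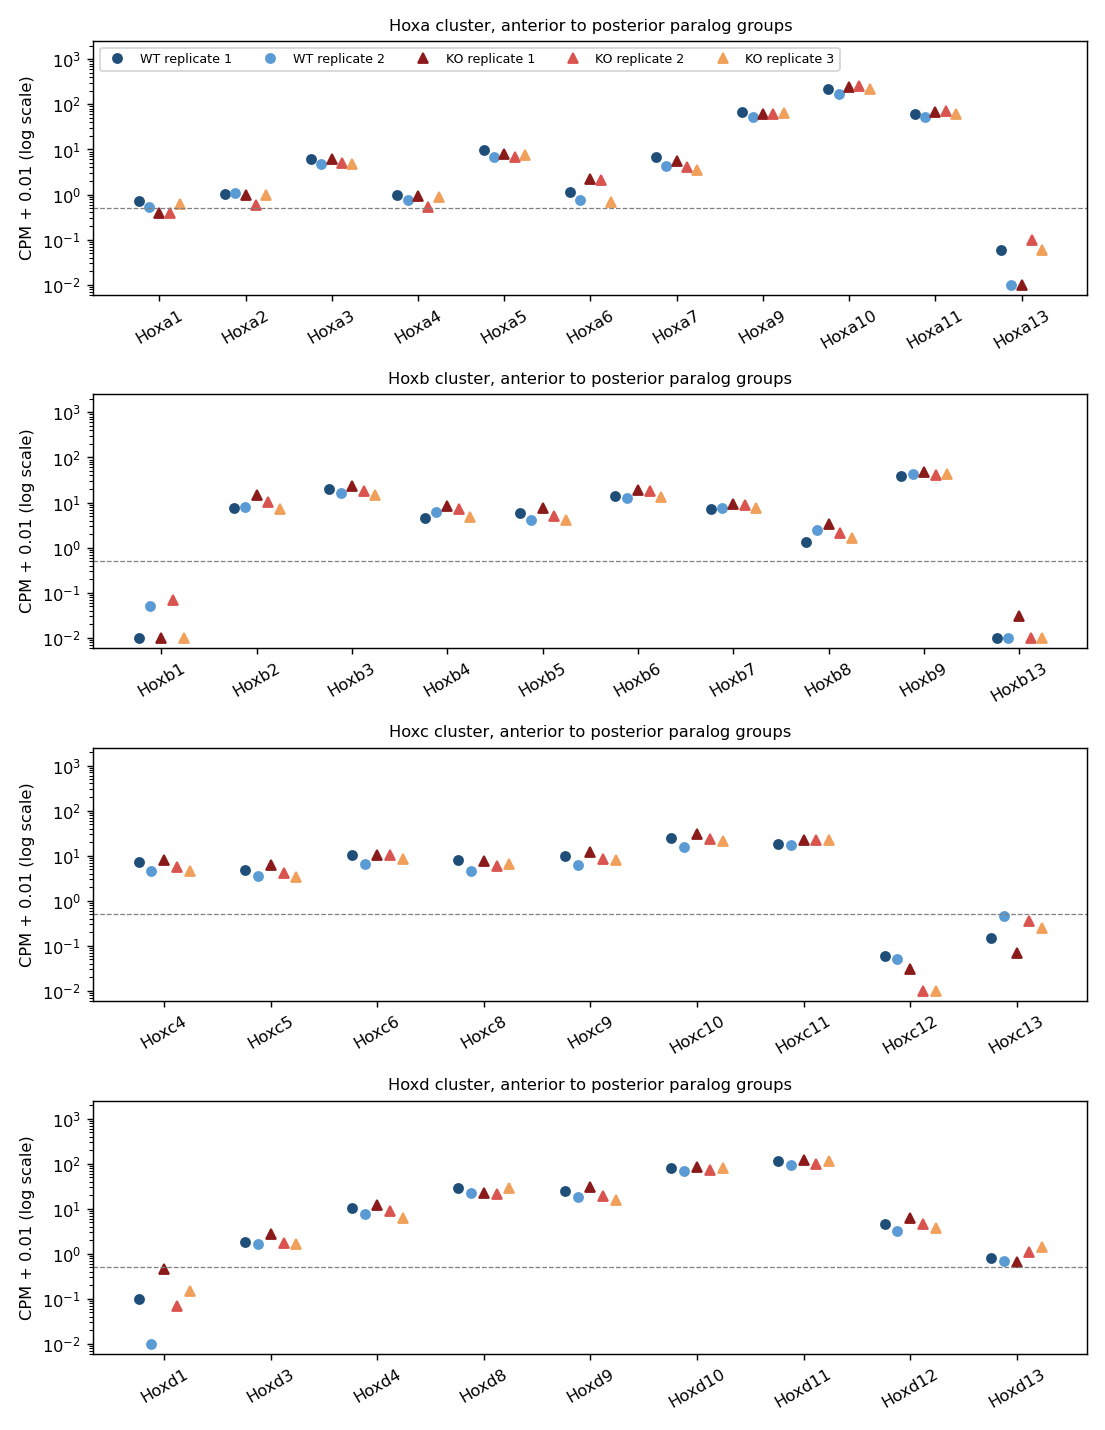
Level of each Hox gene in each library as CPM + 0.01 on a log axis, with 1 panel per cluster, circles for WT and triangles for KO, and a dashed line at 0.5 CPM. Hoxa10, Hoxb9, Hoxc10 and Hoxd11 have the highest mean CPM of their panels, and the 5 libraries differ less than neighbouring genes do at the breaks after Hoxa11, Hoxb9 and Hoxc11.

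No Hox gene passed the test between genotypes. In limma's fit across 14884 genes with Benjamini-Hochberg adjustment, 0 of the 33 Hox genes tested were called at 0.05, beside 1 gene, or 0.00672%, of all genes tested, and the adjusted p was 0.99997 for each. The same fit did not call Dis3l2 either, at a difference of -1.24 and an adjusted p of 0.95 in limma. A missing call here therefore does not show that a gene was unchanged. At an unadjusted p under 0.05 there was 1 Hox gene, Hoxc11, against 2.77% of all genes. In the authors' deposited table, 0 of the 39 Hox genes had an FDR under 0.05, where 0.0315% of all genes did. The fitted differences, KO over WT, ran from -0.28 for Hoxa7 to 0.41 for Hoxa6 on the log2(CPM + 1) scale, a scale that understates the change of low genes. For 31 of the 33 genes the 95% confidence interval lay within a change of 1 on this scale, in either direction, and the upper bounds of Hoxa6 and Hoxb2 passed it, at 1.14 and 1.03.

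Without a call, the direction leaned toward KO. Of the 33 genes, 24 were higher and 9 lower in KO (72.7% higher, against 52.9% of all genes tested), with a median of 0.11 against 0.01 over all genes. This lean rested on WT replicate 2: without it 13 were higher and 20 lower, with a median of -0.05. Without KO replicate 1 the split was 19 to 14, with a median of 0.05, and without WT replicate 1 it was 30 to 3, with a median of 0.24. Summed Hox RNA came to 826 and 669 CPM (WT) against 901, 824 and 792 CPM (KO), so WT replicate 2 was the lowest, and WT replicate 1 lay among the KO libraries. The means were 747 ± 111 CPM (SD, n = 2) in WT and 839 ± 55.7 CPM (SD, n = 3) in KO.

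By cluster, all 8 tested genes of Hoxb and all 7 of Hoxc had a positive difference, while Hoxa had 4 positive and 6 negative, and Hoxd 5 and 3. The medians were -0.05 in Hoxa, 0.20 in Hoxb, 0.18 in Hoxc and 0.09 in Hoxd, on the log2(CPM + 1) scale. Leaving out WT replicate 2 moved Hoxc to 1 positive and 6 negative, with a median of -0.08, and Hoxb to 6 and 2, with a median of 0.22. The Hoxd median was then -0.04, and without KO replicate 1 it was 0.0076. Without KO replicate 1 Hoxb had 6 positive and 2 negative, with a median of 0.09. Leaving out WT replicate 1 moved the Hoxa median to 0.11. By position, the median was 0.01 for groups 1 to 4, with 5 genes positive and 5 negative. It was 0.14 for groups 5 to 8 (8 and 3) and 0.23 for groups 9 to 13 (11 and 1). Without WT replicate 2 these 3 medians were -0.14, -0.10 and 0.02, and without KO replicate 1 the anterior median was -0.12 and the posterior median 0.10. Cluster and position were not tested as effects, and their members share libraries.

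**Figure D3:**
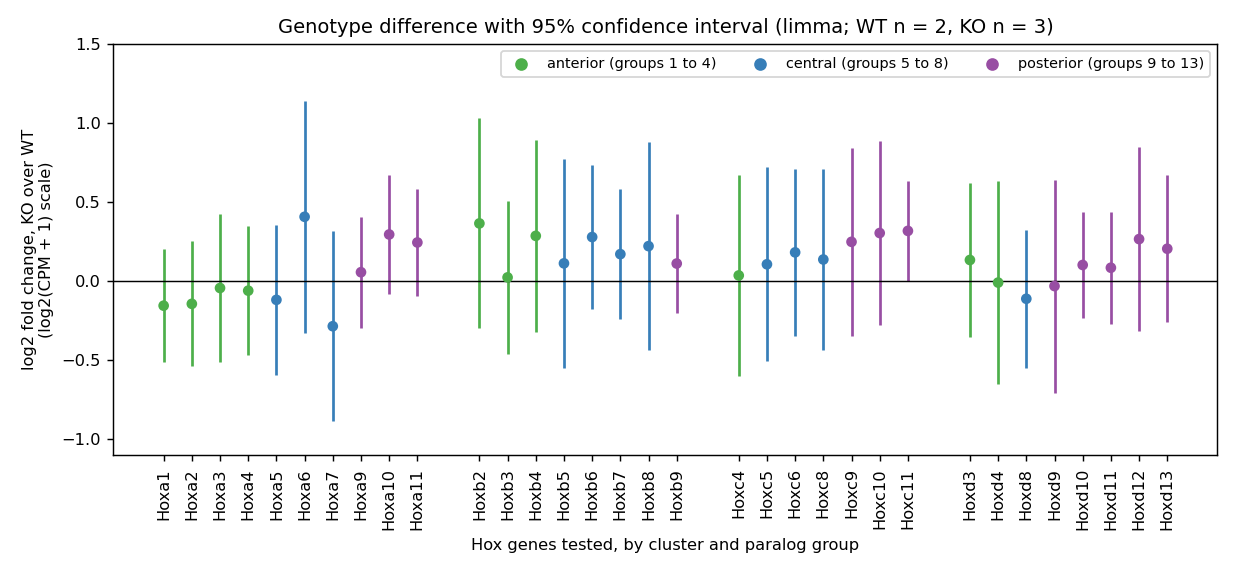
Fitted log2 fold change of each tested Hox gene, KO over WT, with its 95% confidence interval from limma (WT n = 2, KO n = 3), ordered by cluster and paralog group and coloured by position. All points lie between -0.28 and 0.41 with intervals across 0, except that of Hoxc11, which lies just above it.

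The genotypes did not overlap in 3 of the 33 genes, or 9.09%, where 14.8% of all genes tested had no overlap. For Hoxa10 and Hoxc11 the KO libraries all exceeded the WT libraries (7.85% of all genes), and for Hoxa2 they all lay below (6.98% of all genes). Hoxc11 had the smallest spread within genotype of its group, with 17.6 ± 0.445 CPM in WT (SD, n = 2) and 22.2 ± 0.326 CPM in KO (SD, n = 3). Its difference was 0.32 (SE 0.13, 95% interval 0.0046 to 0.63), with an unadjusted p of 0.0475 and an adjusted p of 0.99997 in limma. Hoxa10 differed by 0.30 (SE 0.16, interval -0.08 to 0.67) and lay lowest in WT replicate 2. Without that library its difference was 0.11, and without WT replicate 1 it was 0.49. Hoxa2, which patterns the hindbrain, gave 1.02 and 1.05 CPM (WT) against 0.98, 0.59 and 0.99 CPM (KO), so that KO replicate 2 stood apart and KO replicates 1 and 3 lay close to WT.

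The other genes of groups 10 and 11 overlapped between genotypes. Hoxa11 differed by 0.25 (interval -0.09 to 0.58), with KO replicate 3 just below WT replicate 1. Without WT replicate 2 it differed by 0.11, and without WT replicate 1 by 0.38. For Hoxd10 the difference was 0.10 and for Hoxd11 0.09, and the intervals of -0.23 to 0.44 and -0.27 to 0.44 bound a change in either direction. Hoxc10 differed by 0.31, with an interval of -0.28 to 0.89. Without WT replicate 2, which was lowest for all of these, the differences of Hoxc10, Hoxd10 and Hoxd11 were negative, at -0.04, -0.03 and -0.05. Hoxa11 shares 35.0% of its exon bases with the antisense Hoxa11os on the other strand, and Hoxd11 shares 10.8% with another gene on its own strand. Strand use in counting is not given in these sources, and reads from such pairs may not have been told apart.

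The 2 largest differences fell on genes outside groups 9 to 11. Hoxa6 gave 1.11 and 0.74 CPM (WT) against 2.17, 2.12 and 0.66 CPM (KO), and Hoxb2 gave 7.61 and 8.11 CPM (WT) against 14.8, 10.48 and 7.20 CPM (KO). In both, KO replicates 1 and 2 lay above WT and KO replicate 3 below both WT libraries. Their fitted differences were 0.41 (interval -0.32 to 1.14) and 0.37 (interval -0.30 to 1.03). Without KO replicate 1 they were 0.25 and 0.13, and without KO replicate 3 they were 0.71 and 0.60. For Hoxa6 the value was also lower without WT replicate 2 (0.27) or KO replicate 2 (0.26). Hoxb8 gave 1.35 and 2.46 CPM (WT) against 3.41, 2.15 and 1.65 CPM (KO), with the 2 genotypes interleaved. Hoxa7 had the most negative difference, with 6.91 and 4.28 CPM (WT) against 5.48, 4.15 and 3.48 CPM (KO), and its interval was -0.89 to 0.32. For Hoxb6 the difference was 0.28, with an interval of -0.18 to 0.74, and KO replicate 3 lay between the WT libraries. Without KO replicate 1 it was 0.18, and without KO replicate 3 it was 0.43. The median coefficient of variation over the 5 libraries was 22.3% for the tested Hox genes, from 7.35% to 54.2%, and 16.5% for all genes tested.

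Most Hox genes outside Hoxb moved together between the libraries of the WT. WT replicate 2 lay below WT replicate 1 in 27 of the 33 genes, among them all 7 of Hoxc, all 8 of Hoxd and 9 of 10 of Hoxa, but only 3 of 8 of Hoxb. Over all genes tested the share was 54.8%. WT replicate 2 was the lowest of the 5 libraries for 14 Hox genes (42.4%, against 17.5% of all genes), and KO replicate 1, the deepest library, was the highest for 20 (60.6%, against 28.1%). The 9 progenitor markers together were also lowest in WT replicate 2, at 869 and 690 CPM (WT) against 849, 700.1 and 792 CPM (KO), while the 9 stromal markers were lowest in KO replicate 3. Sall1, a regulator of progenitor renewal, gave 81.7 and 37.0 CPM (WT) against 88.0, 49.6 and 47.9 CPM (KO). Eya1, a partner of the Hox11 proteins, gave 274 and 168 CPM (WT) against 248, 194 and 221 CPM (KO). Gdnf, the signal that draws out the ureteric bud, gave 12.0 and 2.42 CPM (WT) against 22.6, 5.15 and 5.83 CPM (KO). WT replicate 2 was the lowest library for all 3 of these genes, and for Cited1 and Osr1 among the progenitor markers. It was not the lowest for Six2, Itga8, Meox1, Crym or Pax2. Itga8 gave 441 CPM there and ranged from 356 to 471 CPM over the 5 libraries. The part of these genes, and that of depth, in the library pattern of the Hox genes was not tested.

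**Figure D4:**
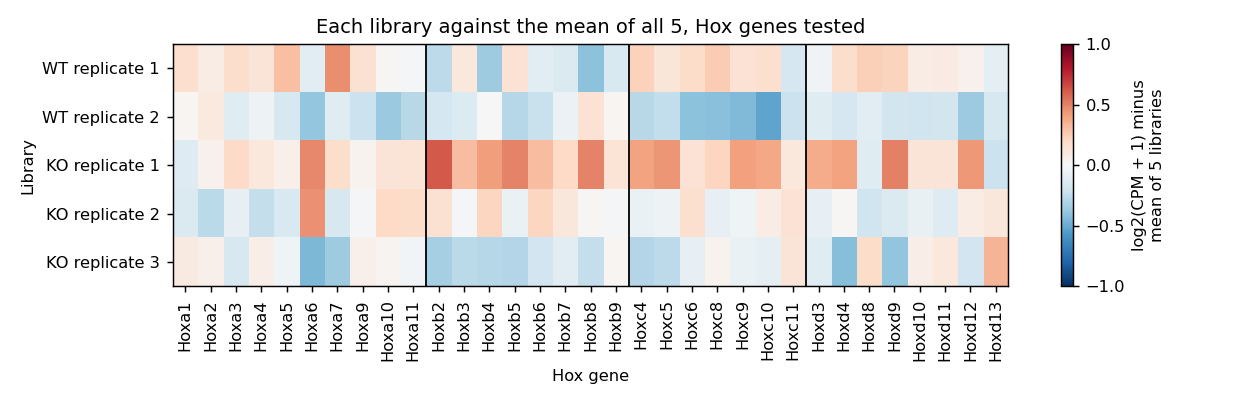
Deviation of each library from the mean of all 5 on the log2(CPM + 1) scale, for the 33 tested Hox genes in columns by cluster, with libraries in rows. WT replicate 2 is the lowest library for 14 of the genes and KO replicate 1 the highest for 20, and in Hoxc WT replicate 2 lies below WT replicate 1 in all 7.

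Genes that act with Hox proteins gave no call either. Of the Hox11 partners and targets in the kidney, 8 of 9 were tested, with 6 higher, 2 lower, none past the threshold and a median of 0.08. Osr1, an early regulator of nephrogenic mesenchyme, gave 22.3 and 19.5 CPM (WT) against 41.5, 64.6 and 27.3 CPM (KO). All its KO libraries lay above WT (7.85% of all genes tested). Its difference was 0.97 (SE 0.33, adjusted p = 0.99997). Six2, the defining progenitor factor, gave 19.0 and 18.8 CPM (WT) against 31.9, 26.5 and 18.6 CPM (KO), so KO replicate 3 lay below both WT libraries. Gdnf differed by 0.58, which turned to -0.38 without WT replicate 2, and Pax2, at 0.05 to 0.66 CPM, was not tested.

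The TALE cofactors, homeodomain proteins of the Pbx, Meis and Pknox families that bind DNA with Hox proteins, were tested for 8 of 9 members. Of these, 6 were higher and 2 lower, none was called, and the median was 0.11. Pknox1 gave 16.9 and 17.5 CPM (WT) against 25.2, 22.0 and 20.6 CPM (KO), with no overlap (14.8% of all genes tested, in either direction). Its difference was 0.37 (SE 0.15, adjusted p = 0.99997 in limma). Pknox2, which went the other way without overlap, gave 31.7 and 28.2 CPM (WT) against 27.6, 26.7 and 27.0 CPM (KO), with a difference of -0.14.

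Polycomb and Trithorax proteins keep Hox genes silent or active. All 27 of those listed were tested, with 16 higher, 11 lower, none called and a median of 0.03, close to the 0.01 of all genes. Phf19, a Polycomb accessory protein, differed by 0.29. Its KO libraries all lay above WT (7.85% of all genes tested), at 2.34 to 3.03 CPM against 1.95 and 1.97 CPM. Cbx7, a Polycomb reader protein, differed by -0.19.

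Noncoding genes inside the clusters and genes at their borders were compared in the same fit. Of 17 noncoding genes listed, 6 were tested, with 5 higher, 1 lower, none called and a median of 0.15. Hoxb5os, an antisense gene of the Hoxb cluster, gave 0.84 and 1.69 CPM (WT) against 3.96, 5.05 and 1.98 CPM (KO). All its KO libraries lay above WT (7.85% of all genes tested). Its difference was 1.01 (SE 0.33, adjusted p = 0.99997), and the authors' deposited table lists it at 1.53 on the log2 scale, FDR 1. Hoxb5, which lies on the other strand, differed by 0.11. Hoxa11os gave 15.2 and 11.7 CPM (WT) against 27.0, 20.6 and 10.1 CPM (KO), and the genotypes overlapped. Hoxd3os1 differed by 0.22.

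Of 14 names listed for the borders, 8 were tested, with 4 higher and 4 lower, none called and a median of -0.04. Snx10, near the Hoxa cluster, gave 7.79 and 9.62 CPM (WT) against 4.11, 5.12 and 6.58 CPM (KO). It lay below WT in all KO libraries (6.98% of all genes tested), with a difference of -0.64 (SE 0.22, adjusted p = 0.99997 in limma). Lnpk and Mtx2, which border Hoxd, differed by -0.13 and -0.12. Evx1 was listed at 0 in every library and Evx2, beyond Hoxd13, in all but KO replicate 1 (0.04 CPM). Cdx and ParaHox genes, regulators and relatives of the Hox clusters, were too low to test, with Cdx2, Cdx4, Gsx1, Gsx2 and Pdx1 at 0 in every library and Cdx1 at most at 0.03 CPM. Gdf11, a secreted signal that sets posterior Hox boundaries and was listed with them, differed by 0.01.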

How the data were processed

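Stranded libraries were made from total RNA and sequenced single-end at 50 bases, per the labels' protocols. HISAT2 2.1.0, featureCounts and edgeR 3.20.1, with build mm10, are named in the submitters' processing notes. The sources used here do not give the annotation release, the strand setting or the handling of reads with several matches. Each deposited library value is a signal: CPM relative to an effective library size, rounded by the authors to 2 decimals. Besides these, the authors deposited log2 values (a fold change and a mean CPM), a score (the likelihood ratio, not used here), and a p-value with its FDR.

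KO was compared with WT in limma 3.58.1 (R 4.3.3, trend option) on log2(CPM + 1), using all 5 libraries and no covariate. Genes reaching 0.5 CPM in at least 2 libraries were tested, 14884 in all. P-values are two-sided and Benjamini-Hochberg adjusted over all of these, with a threshold of 0.05. No count model was run, because the deposited library values are normalized, rounded CPM and not counts. Read numbers of low genes are the rounded values divided by the step of 1 read. Lengths, overlaps and 50-base windows come from GENCODE M21 (GRCm38), in which 38 of the 39 Hox identifiers match exactly. Simulated data with known changes served to test the limma fit. They held independent noise of the same size for every gene and no shift shared within a library. They therefore do not show what the fit could call in the real data.

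Hox genes described in full are the 3 of each cluster with the highest level per kb, all of groups 10 and 11, the 6 with the smallest p and the 4 with the widest spread. From each list up to 3 tested genes with the smallest p were eligible, and other genes were named after their values were seen. Some genes that this rule covers are not reported here. The members, lists and rules were chosen with earlier results of these data known. Alternatives were other filters, pseudocounts and scaling, a replicate block, the authors' own comparison and leaving out each library.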

Additional observations from a re-analysis of the deposited data

How the results depend on the processing

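No Hox gene was called under any alternative run. Over all genes, 1 was called. The number was 0 with median-of-ratios scaling, 0 with no filter and 0 with a pseudocount of 5. It ran from 0 to 8 when 1 library was left out. With the replicate number as a block, 390 of the 14884 genes tested were called, of which 0 were Hox genes. That is a small share of all genes, so 0 among the 33 Hox genes tested says little about them. Under the block 27 Hox genes were higher in KO and 6 lower. The smallest adjusted p of a Hox gene in limma was then 0.0810, and the median difference of the Hox genes was 0.20. Among the other genes named, 2 antisense genes of the Hox clusters included, Osr1, Gdnf, Snx10, Hoxb5os, Hoxa11os and Dis3l2 passed the threshold under the block, with adjusted p-values in limma of 0.0278 to 0.0483. KO replicate 3 has no partner in that fit, so its differences equal those without KO replicate 3. Deviations of same-numbered libraries from the mean of their genotype correlated at 0.414 and 0.537 over 14884 genes. With 2 WT libraries these deviations mirror each other, so WT replicate 2 with KO replicate 1 gave -0.414. WT replicate 1 with KO replicate 2 gave -0.537, and all these values rest on the same WT contrast. There are only 2 pairs and the labels do not say what a number marks, so the numbers were not taken to pair the libraries.

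Leaving out 1 library at a time, the median difference ran from -0.14 to 0.11 in Hoxa, 0.09 to 0.33 in Hoxb, -0.08 to 0.48 in Hoxc and -0.04 to 0.20 in Hoxd. It ran from -0.14 to 0.18 for anterior, -0.10 to 0.29 for central and 0.018 to 0.29 for posterior genes. The sign of 20 of the 33 Hox genes turned in at least 1 such fit. These ranges were -0.13 to 0.24 for Hoxa9, -0.036 to 0.65 for Hoxc10, -0.11 to 0.48 for Hoxc6, -0.031 to 0.24 for Hoxd10, -0.046 to 0.22 for Hoxd11, -0.29 to 0.17 for Hoxd9 and -0.057 to 0.50 for Hoxb8. They were -0.19 to 0.10 for Hoxa3, -0.15 to 0.049 for Hoxa4, -0.35 to 0.11 for Hoxa5, -0.58 to 0.0075 for Hoxa7, -0.12 to 0.16 for Hoxb3, -0.11 to 0.33 for Hoxb5, -0.22 to 0.29 for Hoxc4, -0.094 to 0.29 for Hoxc5 and -0.20 to 0.48 for Hoxc8. For Hoxc9 the range was -0.046 to 0.54, for Hoxd3 -0.023 to 0.22, for Hoxd4 -0.21 to 0.20 and for Hoxd8 -0.28 to 0.061. Other genes that turned were Gdf11 (-0.13 to 0.15), Gdnf (-0.38 to 1.54), Lnpk (-0.26 to 0.0029) and Mtx2 (-0.24 to 0.0006). The block turned Hoxd9 to 0.16, Hoxa3 to 0.028 and Hoxd4 to 0.20. A pseudocount of 5 turned Hoxd4 to 0.0002, and median-of-ratios scaling turned Gdf11 to -0.0085. The cause of these changes was not tested.

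With 2 WT libraries, a spread between WT libraries of the size seen here limits what can be called, and the reads of genes with a mean under 1 CPM limit their differences further.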
